A study of Mus musculus with 18 samples.

Results

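The genes of macroautophagy were examined in retinal pigment epithelium (RPE) that overexpressed the transcription factor Nrf2. The set was a fixed list of 41 genes, found by symbol among the 47729 genes of the count table, and it holds 7 cargo receptors, 32 genes of the core machinery and 2 transcription factors. All 41 passed the filter on low counts. RPE RNA was sequenced from 9 *rd1* mice at P40, whose null mutation in *Pde6b* causes an early loss of rods. One eye of each mouse had received AAV-Best1-Nrf2, in which the human Best1 promoter drives the human *Nrf2* cDNA in the RPE, together with AAV-Best1-GFP. The other eye carried AAV-Best1-GFP as its sole vector, so that all 18 eyes carried an AAV and GFP. By the study's methods, the vectors differed in capsid, and eyes given AAV-Best1-Nrf2 received a higher total vector dose. Capsid, dose and Nrf2 therefore cannot be told apart between treated and control eyes. These groups of 9 libraries are called Best1-Nrf2 and control. The labels hold 9 numbered pairs, more than the study's methods state for this age and strain, and all of them were used. The RNA came from the liquid in which eyecups without retina had been placed, a preparation meant to favour the RPE.

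Autophagy encloses cytoplasm in a double membrane and delivers it to the lysosome. The Ulk kinase complex starts the process, a class III phosphatidylinositol 3-kinase (PI3K) complex marks the membrane, lipid is supplied through Atg9, Atg2 and Wipi proteins, and a ubiquitin-like conjugation system attaches Atg8 proteins such as LC3 to it. Receptors bind cargo on one side and Atg8 proteins on the other. In the RPE, part of this machinery also serves LC3-associated phagocytosis of photoreceptor outer segments. The receptor p62, the product of *Sqstm1*, binds Keap1, the protein that keeps Nrf2 low, and *Sqstm1* is itself a known Nrf2 target.

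Library totals ranged from 18956748 to 44054836 counts in control eyes and from 32839893 to 49598700 in Best1-Nrf2 eyes, and the smallest was the control eye of mouse 8. *Nfe2l2*, the mouse counterpart of the delivered cDNA, was measured at 76.7 CPM (lowest), 83.0 CPM (median) and 134 CPM (highest) in control eyes and at 275, 457 and 704 CPM in Best1-Nrf2 eyes. CPM are counts scaled to a common library size after TMM normalisation. The groups did not overlap, and the log2 fold change was 2.29 (SE 0.21, adjusted p = 6.21e-05). Of 18 RPE markers, every one was detected in all libraries and 6 were lower with Best1-Nrf2. These were *Rpe65*, *Rlbp1*, *Lrat*, *Rdh5* and *Rgr*, which serve the visual cycle, and *Ermn*. Without mouse 1, 2 or 7 the count was 3. None was higher in the paired edgeR model (1 without the replicate block, 1 under the stricter count filter, 1 in DESeq2, 2 in voom and 2 without mouse 6), but *Best1* was above its control level in 9 of 9 mice (log2 fold change 0.97, adjusted p = 0.0555) and *Tyr* in 8 of 9 (0.78, adjusted p = 0.190). The level of *Best1* was low, with medians of 1.31 CPM (control) and 2.65 CPM (Best1-Nrf2). *Rpe65* fell from a median of 2201 CPM to one of 239 CPM, with separate groups and a lower level in 9 of 9 mice (log2 fold change -2.81, SE 0.31, adjusted p = 0.000241). The summed RPE marker level had a median of 42366 CPM (range, 13757 to 71310) in control eyes and 21696 CPM (range, 17015 to 80469) in Best1-Nrf2 eyes, and was higher in 4 of 9 mice. Without *Ttr*, the gene with the highest level on the list (up to 54488 CPM), the sum went from a median of 27392 CPM to one of 12692 CPM and was lower in 8 of 9 mice. Markers of other cells were present too. Macrophage and microglia markers were higher for 12 of 20 genes, with sums of 272 to 611 CPM (control) and 357 to 1106 CPM (Best1-Nrf2). Cone markers were lower for 9 of 11 genes, with sums of 321 to 2320 CPM (control) and 72.2 to 546 CPM (Best1-Nrf2), and the Best1-Nrf2 eye of mouse 6 was the highest of its group. Control cone sums were 1789 to 2320 CPM in mice 1, 2, 3 and 9 and 321 to 815 CPM in the other mice. This split was seen in the values and was not tested. Of the 10 rod markers tested, 4 were lower and 1 was higher, and 5 of the 12 on the list were at 0 in at least 1 library. Of the fibroblast and sclera markers 1 of 9 was higher (0 to 2 when a mouse was left out), and their sum went from a median of 584 CPM to one of 704 CPM, higher in 8 of 9 mice. Of the inner retina and Müller glia markers 1 of 17 was lower, which was *Rlbp1* again, a gene of both lists. Their sum went from a median of 3542 CPM to one of 2424 CPM, lower in 7 of 9 mice, but without *Rlbp1* it was 1438 and 1496 CPM and lower in 4 of 9 mice. Both sums without a gene were added after the values were seen. Of 8 endothelial markers, 0 passed in edgeR, DESeq2 or voom, and 0 had an unadjusted p under 0.05. No marker was at 0 in every library. In bulk RNA, fewer cells of a type and less RNA per cell cannot be told apart. The retina had been removed from the eyecups. Levels of photoreceptor and inner retina markers can also depend on how much of it remained, which is not given in the sources used here.

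Of the 41 autophagy genes, 2 passed the test between eyes, and both were receptors that rose with Best1-Nrf2. These were *Sqstm1* and *Bnip3*. In all genes tested, 4.25% passed (806 of 18958, and 3.12% higher), so the 4.88% among the autophagy genes was near the background. The other 39 genes did not pass. Without adjustment, 3 genes had p under 0.05, all higher, against 12.8% of all genes. The median log2 fold change of the 41 genes was 0.06 (range, -0.31 to 1.15), beside -0.03 over all genes tested, and 38 of the 41 estimates were smaller than 0.5 in size. No autophagy gene had groups that did not overlap, where 1.17% of all genes did, and 2 moved the same way in 9 of 9 mice, where 4.34% of all genes did (3.12% higher and 1.22% lower). Beside these counts stand the marker shifts given above. The part of the RPE and fibroblast markers was not tested. With the mean macrophage marker level as a covariate, 0 autophagy genes and 36 of all genes passed in edgeR. With that of rod and cone markers, 1 autophagy gene (*Bnip3*) and 45 of all genes passed. Both marker levels themselves differ between the groups, so that covariate and vector cannot be fully told apart.

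**Figure D1:**
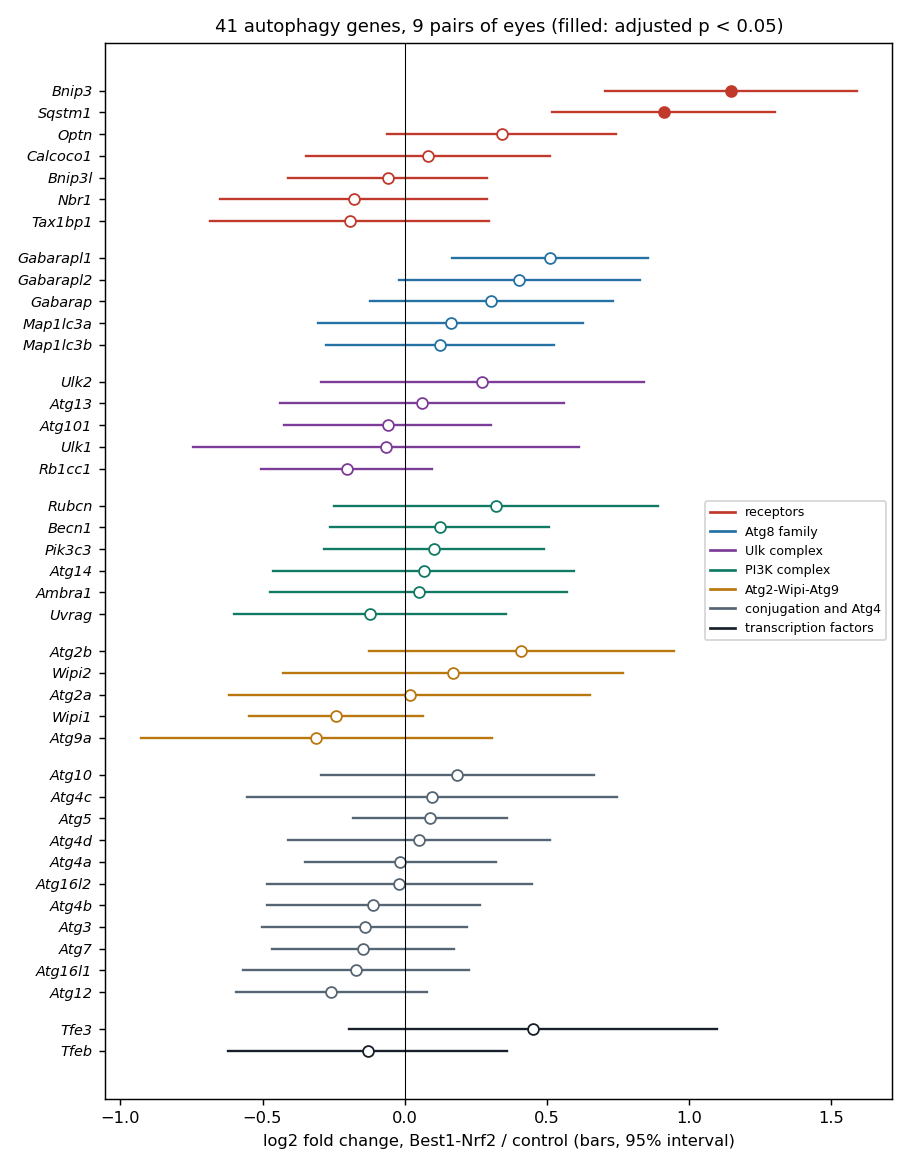
Log2 fold change (horizontal axis, Best1-Nrf2 over control) of each of the 41 autophagy genes, grouped by role, with bars for the 95% interval of the paired edgeR model (9 mice) and filled points for an adjusted p under 0.05. *Bnip3* (1.15) and *Sqstm1* (0.91) lie apart from the other receptors, and the estimates of the core machinery lie between -0.31 and 0.51.

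The receptors were considered first. *Sqstm1* (ENSMUSG00000015837, GRCm38 chromosome 11, 50199366 to 50210827, minus strand, 8 exon blocks) encodes p62, which gathers ubiquitinated proteins. Its level was 320.2 CPM (lowest), 511 CPM (median) and 587 CPM (highest) in control eyes, and 547, 1016 and 1368 CPM in Best1-Nrf2 eyes. The groups touched only at their edges: the lowest Best1-Nrf2 eye, that of mouse 3, lay below the 2 highest control eyes, those of mice 2 and 9. This was a 1.88-fold rise (log2 fold change 0.91, SE 0.18, adjusted p = 0.0120), and 9 of 9 mice had the higher level on the Best1-Nrf2 side. The rise passed the test without any given mouse (adjusted p from 0.00549 to 0.0482). It was 0.91 without mouse 8 (adjusted p = 0.0252) and 1.00 without mouse 6 (adjusted p = 0.00549). With the rod and cone covariate the estimate was 0.75 (adjusted p = 0.312), and with the macrophage covariate it was 0.86 (adjusted p = 0.993). None of the 31-base words of *Sqstm1* transcripts occurs in another annotated gene. The gene overlaps *Mrnip* on the other strand, which had 48 to 282 counts per library, against 5618 or more for *Sqstm1*.

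*Bnip3* (ENSMUSG00000078566, GRCm38 chromosome 7, 138890836 to 138909519, minus strand, 6 exon blocks) encodes a receptor in the outer mitochondrial membrane that is known for induction by hypoxia. Its level was 18.8, 46.7 and 63.9 CPM (lowest, median and highest) in control eyes and 60.7, 111 and 155 CPM in Best1-Nrf2 eyes. A single pair of values kept the groups from being separate, as the Best1-Nrf2 eye of mouse 1 lay below the control eye of mouse 2. The rise was 2.21-fold (log2 fold change 1.15, SE 0.20, adjusted p = 0.00575) and was seen in 9 of 9 mice. The control eye of mouse 8 was the lowest by a wide margin, and without this mouse the log2 fold change was 1.07 (adjusted p = 0.0170). It was 1.04 without mouse 6 (adjusted p = 0.00771). With the rod and cone covariate the estimate was 2.10 (adjusted p = 0.0203), and with the macrophage covariate it was 1.29 (adjusted p = 0.747). Other genes hold 20.3% of its 31-base words, above all the pseudogene *Gm16439*, which had 0 to 6 counts per library. *Bnip3* overlaps *Gm45507* and *Gm18258* on the other strand, whose counts were not compared with its own.

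**Figure D2:**
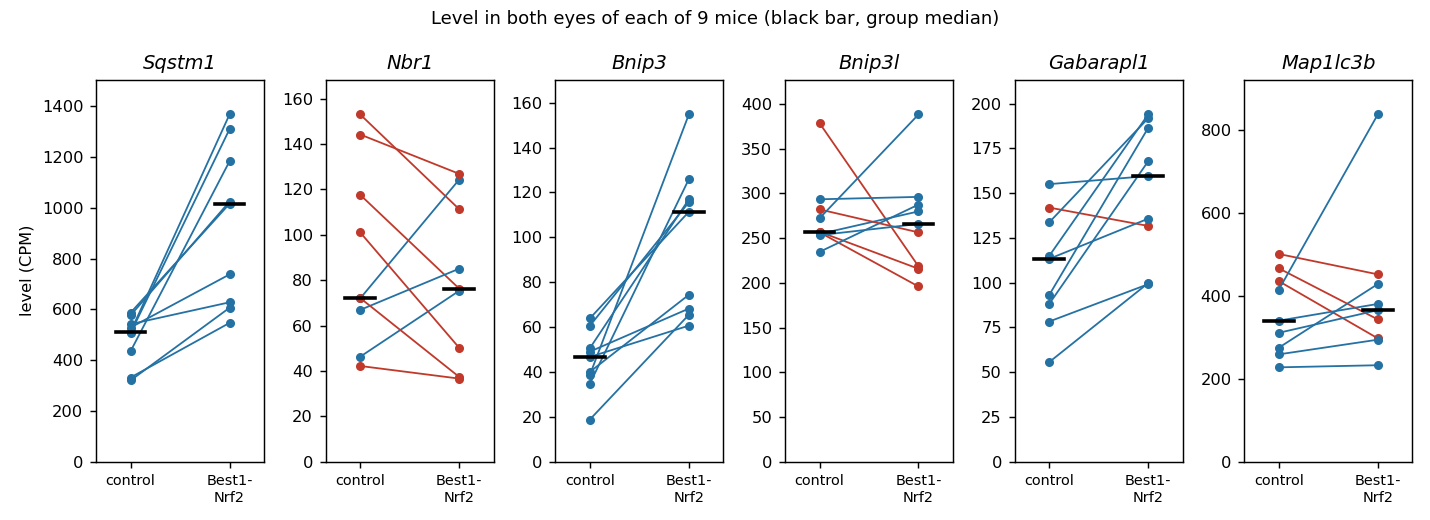
Level in CPM (vertical axes, each from 0) of 6 autophagy genes in the control and the Best1-Nrf2 eye of 9 mice, with a line for each mouse (blue where the Best1-Nrf2 eye is higher, red where it is lower) and a black bar for the group median. All lines rise for *Sqstm1* and *Bnip3*, 8 of 9 rise for *Gabarapl1*, and lines go both ways for *Nbr1*, *Bnip3l* and *Map1lc3b*.

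The other 5 receptors did not pass. *Nbr1*, a relative of p62 in domain structure that also binds ubiquitin, was at 42.2, 72.1 and 153 CPM (lowest, median and highest) in control eyes and 36.6, 76.3 and 127 CPM in Best1-Nrf2 eyes. These ranges nearly coincide, and the log2 fold change was -0.18 (95% interval, -0.65 to 0.29, adjusted p = 0.846). *Bnip3l*, the close relative of *Bnip3* known as Nix, had a log2 fold change of -0.06 (95% interval, -0.41 to 0.29), and 23.7% of its 31-base words recur elsewhere, mostly in its pseudogene. *Optn*, a receptor for mitochondria and bacteria, was higher in 6 of 9 mice by an estimate of 0.34 (95% interval, -0.06 to 0.74, adjusted p = 0.504). The estimates were 0.08 for *Calcoco1*, which acts in the turnover of the endoplasmic reticulum, and -0.19 for the ubiquitin-binding receptor *Tax1bp1*. As a class, 2 of 7 receptors were higher, against 3.12% of all genes tested, and their median log2 fold change was 0.08. Among the 13 further receptors counted below, 0 were higher.

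The genomic sequence just upstream of the called receptors is shown because their change in RNA was the part of the set that passed the test. It was taken from RefSeq (GRCm38.p6, minus strand, 5′ to 3′) and leaves out annotated exons. For *Sqstm1* it is the whole gap of 62 bases (chr11:50210828-50210889) to *Mgat4b*, which starts on the other strand. For *Bnip3* it covers 237 bases (chr7:138909520-138909756), and capitals mark CACGTG, the core of the sites of basic helix-loop-helix factors such as Tfeb.
Sqstm1: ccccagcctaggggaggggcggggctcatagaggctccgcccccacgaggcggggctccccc
Bnip3: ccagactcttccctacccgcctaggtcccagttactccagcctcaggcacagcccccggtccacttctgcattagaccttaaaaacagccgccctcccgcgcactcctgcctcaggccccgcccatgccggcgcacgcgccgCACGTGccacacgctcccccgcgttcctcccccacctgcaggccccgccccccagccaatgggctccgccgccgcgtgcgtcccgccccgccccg

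The *Sqstm1* gap is 79.0% G or C and the *Bnip3* stretch 72.6%. *Mgat4b*, which shares the gap with *Sqstm1*, had mean levels of 45.8 CPM (control) and 52.0 CPM (Best1-Nrf2) (log2 fold change 0.18, adjusted p = 0.845). Windows of 300 bases around the RefSeq start were available for 34 of the 41 genes (42 windows). The core of the antioxidant response element, TGACNNNGC on either strand, was found for *Atg13*, *Map1lc3b*, *Tax1bp1* and *Ulk2*. It was in 4 of the 42 windows and in 12.4% of all 32851 windows. It was not in the windows of *Sqstm1* and *Bnip3*, which says only that these letters are absent there. CACGTG was found for 6 genes (*Atg14*, *Atg3*, *Atg5*, *Atg7*, *Bnip3* and *Rubcn*), in 6 of the 42 windows, and in 7.15% of all windows. In *Bnip3* it begins at position -108 from the start. The shorter ACGTG, which overlaps it and is the core of hypoxia response elements, was found for 16 genes. It was in 16 of the 42 windows and in 19.6% of all windows. Differences between these shares were not tested.

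The 5 Atg8 genes all had positive estimates, of which none passed in the paired edgeR model (1 had an unadjusted p under 0.05). *Gabarapl1*, which encodes a GABARAP-type protein, had the largest. Its level was 55.6, 113 and 155 CPM (lowest, median and highest) in control eyes and 99.2, 160 and 194 CPM in Best1-Nrf2 eyes. The groups overlapped widely, although the level was higher in 8 of 9 mice, the exception being mouse 1. The log2 fold change was 0.51 (95% interval, 0.17 to 0.85, adjusted p = 0.123), and the gene passed in DESeq2 (adjusted p = 0.0476) but not in voom (adjusted p = 0.0589). *Gabarapl2* (0.40, 95% interval, -0.02 to 0.83) and *Gabarap* (0.31, 95% interval, -0.12 to 0.73) were each higher in 6 of 9 mice. Of the LC3 genes, *Map1lc3a* was at 158, 324 and 520 CPM in control eyes and 282, 342 and 430 CPM in Best1-Nrf2 eyes. *Map1lc3b* was at 228, 340 and 501 CPM in control eyes and 233, 366 and 838 CPM in Best1-Nrf2 eyes. Their log2 fold changes were 0.16 (95% interval, -0.30 to 0.63) and 0.12 (95% interval, -0.28 to 0.53), so that a doubling lay outside both intervals.

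Levels between genes were compared per length. On a scale of CPM per kilobase of annotated exon, *Map1lc3a* had the highest control median, 274 (range, 134 to 440). *Sqstm1* came next at 152 (95.4 to 175), followed by *Gabarap* at 129 (98.2 to 245) and *Gabarapl2* at 93.3 (63.3 to 136). Each of these ranges overlapped that of its neighbour. *Bnip3l* was at 66.6, *Gabarapl1* at 56.3 and *Map1lc3b*, whose annotated exons span 7.52 kb, at 45.3. In Best1-Nrf2 eyes the *Sqstm1* median was 303, above the 290 of *Map1lc3a*. *Atg2b* had the lowest control median, 0.68 CPM per kilobase.

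None of the 5 Ulk complex genes passed in edgeR, and none had an unadjusted p under 0.05. *Ulk2*, a kinase of the complex, had the largest estimate. It was at 11.2, 16.6 and 51.0 CPM (lowest, median and highest) in control eyes and 10.5, 21.5 and 55.0 CPM in Best1-Nrf2 eyes, a log2 fold change of 0.27 (95% interval, -0.29 to 0.84, adjusted p = 0.781). The ranges were alike, and within mice the change ran from -0.67 to 1.83. The estimate turned to -0.71 with the rod and cone covariate. *Rb1cc1*, the scaffold FIP200, was lower in 7 of 9 mice by an estimate of -0.20 (95% interval, -0.50 to 0.10). The estimates were 0.06 for *Atg13*, -0.06 for *Atg101* and -0.07 for the kinase gene *Ulk1*.

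The 6 genes of the PI3K complex and its regulators did not pass in edgeR, and none had an unadjusted p under 0.05. *Rubcn*, which encodes an inhibitor of this complex in autophagy that is needed for LC3-associated phagocytosis, was at 11.2, 17.1 and 42.9 CPM (lowest, median and highest) in control eyes and 9.49, 15.5 and 51.3 CPM in Best1-Nrf2 eyes. The medians and the model pointed in different directions, as the log2 fold change was 0.32 (95% interval, -0.25 to 0.89, adjusted p = 0.725). It turned to -0.72 with the rod and cone covariate. The other estimates were 0.12 for *Becn1*, the scaffold Beclin 1, 0.10 for *Pik3c3*, the lipid kinase itself, and 0.07 for *Atg14*, which directs the complex to autophagy. They were 0.05 for *Ambra1* and -0.12 for *Uvrag*.

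The 5 lipid supply genes were also below the threshold. *Atg2b*, a lipid transfer protein gene, was at 5.30, 9.21 and 19.1 CPM (lowest, median and highest) in control eyes and 7.17, 10.6 and 24.8 CPM in Best1-Nrf2 eyes (log2 fold change 0.41, 95% interval, -0.12 to 0.95, adjusted p = 0.572). It was higher in 7 of 9 mice, but the estimate was -0.02 with the rod and cone covariate and -0.17 with the macrophage covariate. Estimates were 0.02 for *Atg2a*, 0.17 for *Wipi2*, which recruits the conjugation machinery, -0.24 for *Wipi1* and -0.31 for *Atg9a*, the scramblase gene. For *Atg9a*, 32.0% of the 31-base words recur in other annotated genes. *Wipi1* was lower in 8 of 9 mice, from a median of 45.4 CPM to one of 40.2 CPM (95% interval, -0.55 to 0.06, adjusted p = 0.552). None of these 5 genes passed in edgeR or had an unadjusted p under 0.05.

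The 11 genes of conjugation and of the Atg4 proteases had estimates from -0.26 to 0.19, with a median of -0.02. None passed in edgeR or had an unadjusted p under 0.05. *Atg12*, the ubiquitin-like protein that is joined to Atg5, was at 63.1, 86.2 and 132 CPM (lowest, median and highest) in control eyes and 44.9, 79.1 and 94.4 CPM in Best1-Nrf2 eyes. It was lower in 7 of 9 mice, with a log2 fold change of -0.26 (95% interval, -0.59 to 0.08, adjusted p = 0.570). *Atg5* was among the steadiest genes, at 37.7, 46.7 and 51.0 CPM in control eyes and 40.6, 45.3 and 69.1 CPM in Best1-Nrf2 eyes (log2 fold change 0.09, 95% interval, -0.18 to 0.36). The estimates were -0.15 for the activating enzyme gene *Atg7*, -0.14 and 0.19 for the conjugating enzyme genes *Atg3* and *Atg10*, -0.17 for *Atg16l1* and -0.02 for *Atg16l2*. They lay between -0.11 and 0.10 for *Atg4a*, *Atg4b*, *Atg4c* and *Atg4d*. For *Atg4a*, 60.8% of the words recur elsewhere, mostly in its pseudogene, which had 0 to 4 counts per library.

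*Tfeb* and *Tfe3* encode the transcription factors that switch on lysosomal and autophagy genes. *Tfe3* was at 12.7, 22.7 and 49.3 CPM (lowest, median and highest) in control eyes and 11.3, 36.5 and 53.7 CPM in Best1-Nrf2 eyes. The log2 fold change was 0.45 (95% interval, -0.19 to 1.10, adjusted p = 0.623), and within mice it ran from -1.40 to 1.84. The sign turned with the rod and cone covariate (-0.82). For *Tfeb* it was -0.13 (95% interval, -0.62 to 0.36). Neither had an unadjusted p under 0.05.

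To compare receptors with the core machinery, their changes were set side by side in each mouse. Of the 32 core genes, none was higher or lower in edgeR, 1 had an unadjusted p under 0.05, and 1 was higher in DESeq2 and none in voom. Their median log2 fold change was 0.05, against 0.08 for the receptors, so the medians were nearly equal, and the difference between the classes was not tested. Within mice, the receptor median was above the core median in 6 of 9 mice, and the core median ran from -0.36 (mouse 6) to 0.37 (mouse 2). *Sqstm1* was among the 5 largest rises of the 41 genes in 6 mice and *Bnip3* in 7 mice. The number of autophagy genes higher in the Best1-Nrf2 eye varied from 11 of 41 in mouse 1 to 31 of 41 in mouse 5.

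**Figure D3:**
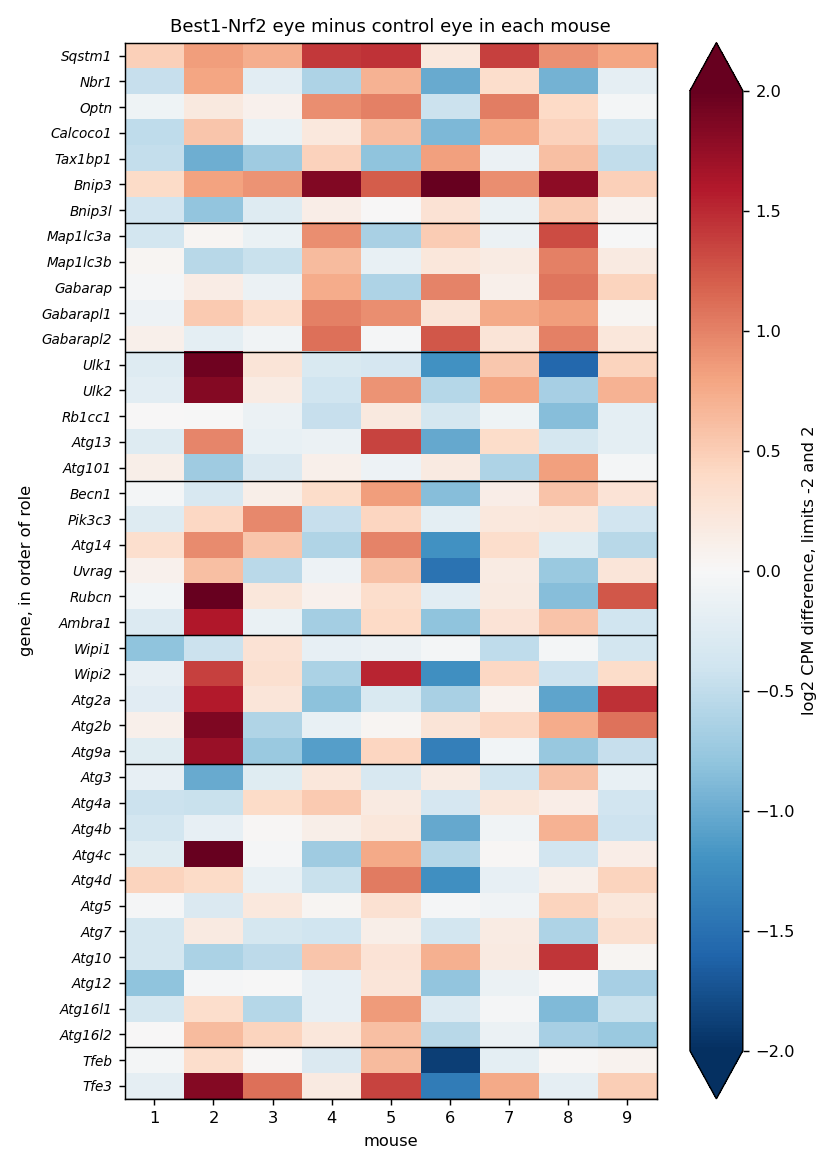
Difference in log2 CPM between the Best1-Nrf2 and the control eye (colour, limits -2 and 2) of each autophagy gene (rows, in order of role, with lines between roles) in each of 9 mice (columns). *Sqstm1* and *Bnip3* are positive in every column, whereas most core genes change sign between mice, with many high in mouse 2 and low in mouse 6.

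In some mice the changes differed with gene length. Of the 41 genes, the 20 with more than 5.76 kb of annotated exon had a median change of 0.61 in mouse 2, -0.72 in mouse 6 and -0.52 in mouse 8, whereas the 21 shorter genes had 0.19, -0.02 and 0.46. The medians of longer and shorter genes were close in mouse 1 (-0.19 and -0.16), mouse 3 (-0.06 and -0.02), mouse 5 (0.38 and 0.42) and mouse 7 (0.16 and 0.18). They were -0.16 and 0.21 in mouse 4 and 0.26 and -0.00098 in mouse 9. Across the 41 genes, Spearman's rho between the change and exon length ran from -0.54 (mouse 8) to 0.27 (mouse 2), and was between -0.06 and -0.02 in mice 1, 7 and 9. The genes of a mouse share its pair of libraries, so these values are a description. The length pattern was not examined further, and its part in the estimates was not tested.

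Related members were then compared within mice, over 11 pairs, by a 2-sided exact sign-flip permutation test on the difference of their log2 changes (smallest possible p, 0.0039). *Sqstm1* changed more than *Nbr1* in 9 of 9 mice, by a mean of 1.09 ± 0.59 (SD, n = 9, exact permutation p = 0.0039, adjusted p = 0.0215). *Bnip3* changed more than *Bnip3l* in 9 of 9 mice, by 1.21 ± 0.44 (SD, n = 9, exact permutation p = 0.0039, adjusted p = 0.0215). *Tfe3* was above *Tfeb* in 7 of 9 mice by a mean of 0.59, which did not pass the correction (exact permutation p = 0.0156, adjusted p = 0.0573). For *Map1lc3a* and *Map1lc3b* the mean difference was 0.04 (range over mice, -0.50 to 0.59). The other 7 pairs did not pass either (adjusted p from 0.204 to 0.486, exact permutation tests). These tests reuse the levels behind the calls above, so they give no independent support for the rise of *Sqstm1* or *Bnip3*.

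The relation of *Sqstm1* to the measured level of *Nfe2l2* was examined across mice. Within mice, *Nfe2l2* was higher in the Best1-Nrf2 eye by 1.13 to 3.08 on the log2 scale and *Sqstm1* by 0.21 to 1.44. The relation did not pass over all 9 mice (Pearson's r = 0.60, exact permutation p = 0.0878, and Spearman's rho = 0.65, exact permutation p = 0.0666). Leaving out 1 mouse gave r from 0.48 (without mouse 4, exact permutation p = 0.224) to 0.90 (without mouse 8, exact permutation p = 0.00236). Without mice 4 and 8, the farthest from the median of *Nfe2l2*, r was 0.89 (exact permutation p = 0.00992). The control eye of mouse 8 had the highest *Nfe2l2* of its group. *Nfe2l2* counts may hold reads of the human cDNA as well as of the mouse gene.

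**Figure D4:**
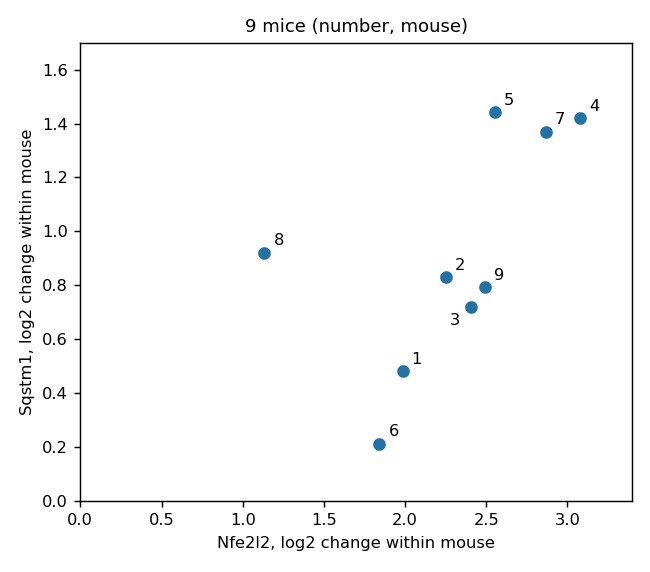
Within-mouse log2 change of *Sqstm1* (vertical axis) against that of *Nfe2l2* (horizontal axis) in 9 mice, each labelled with its number. All points lie above 0 on both axes, and mouse 8 has the smallest *Nfe2l2* change (1.13) with a *Sqstm1* change of 0.92.

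A further 53 genes of the pathway that are not in the set were counted for comparison. Of these, 2 were higher and none was lower in edgeR, which is 3.77%, against 4.25% of all genes, and 6 had an unadjusted p under 0.05. Over the 17 alternative settings listed below, the number past the threshold ran from 0 to 7, beside 36 to 1478 of all genes. *Wdr45*, a Wipi-family gene known as Wipi4 whose product works with Atg2, was at 26.3, 30.3 and 34.9 CPM (lowest, median and highest) in control eyes and 40.3, 56.3 and 104 CPM in Best1-Nrf2 eyes. The groups were separate, and the rise was 2.11-fold (log2 fold change 1.08, SE 0.17, adjusted p = 0.00290, 9 of 9 mice). *Prkaa2*, the α2 catalytic subunit of the energy sensor AMPK, an activator of Ulk1, rose 2.06-fold from a mean of 27.9 CPM to one of 57.9 CPM (log2 fold change 1.05, SE 0.19, adjusted p = 0.00806, 9 of 9 mice). Neither passed with a marker covariate. The estimates with the rod and cone covariate were 1.02 for *Wdr45* (adjusted p = 0.167) and 0.61 for *Prkaa2* (adjusted p = 0.435), and those with the macrophage covariate were 1.17 (adjusted p = 0.639) and 1.06 (adjusted p = 0.948). By class, the higher genes were 0 of 13 further receptors (2 with an unadjusted p under 0.05), 1 of 9 membrane and PI3K genes, 0 of 13 genes of fusion with the lysosome (1 with an unadjusted p under 0.05) and 1 of 18 upstream kinases and regulators. The endoplasmic reticulum receptors *Ccpg1* (0.68, adjusted p = 0.0817) and *Retreg1* (0.66, adjusted p = 0.0986) did not pass, nor did *Keap1* (0.67, adjusted p = 0.0942). Each of these 3, chosen after their values were seen, was higher in 8 of 9 mice.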

How the data were processed

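RPE RNA from eyecups without retina was amplified with a low-input kit that does not mark strand. No molecular identifiers are described, so precision from counts covers counting error only. The authors mapped the reads with STAR to mm10, using Ensembl transcripts, counted them with featureCounts, and estimated transcripts with Salmon (version 0.8.1 in the submitters' processing notes). The deposited table holds expected counts, whole after rounding and without scaling, for each gene, a unit inferred from the values, since the sources used here do not say which counter made it.

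In R 4.3.3, 18958 genes kept by filterByExpr (99.9% of counts) were TMM-scaled and tested in edgeR 4.0.16 (quasi-likelihood F test), with mouse as a block, as the labels give the library of either eye the number of its individual and state that each mouse had both treatments. P values were adjusted over all genes tested (Benjamini-Hochberg, threshold 0.05). The standard error came from the F statistic. Log2 CPM used a prior count of 2. After group means were removed, the correlation between the eyes of a mouse had a median of -0.00095 (range, -0.37 to 0.64). Libraries of a group were no duplicates (72 pairs). The fits were tested on simulated data, in which DESeq2 made more false calls than edgeR or voom.

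The genes given with full values were *Sqstm1*, each gene past the threshold and the gene with the largest change in each role, and of the further pathway genes those past the threshold. Levels of other genes were added after their values were seen. The set and all lists were chosen with earlier results of these data known. Symbols were found for 47224 of 47729 IDs. Positions are from GENCODE on GRCm38, the assembly of mm10, and sequences from RefSeq. The alternatives were no block, RLE scaling, DESeq2 1.42.0, voom with sample weights (limma 3.58.1), no count filter, at least 10 counts in every library, the marker covariates, a prior count of 0.5 for within-mouse differences, and leaving out each mouse. Which library was in which sequencing run is not given in the sources used here and did not enter the fits.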

Additional observations from a re-analysis of the deposited data

Results flagged for a closer look

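Of 84 groups of 9 libraries screened (41 autophagy genes and *Nfe2l2*, in log2 CPM), 4 held a library whose gap to its neighbour was over 0.493 of the group's range, where chance gives 4.2. The control eye of mouse 8, the smallest library, accounted for 3 of them. It had the highest *Nfe2l2* level among control eyes (7.06, with 6.60 in the second highest), the lowest *Optn* level (5.18, against 6.08) and the lowest *Bnip3* level (4.24, against 5.12). The control eye of mouse 2 had the highest *Bnip3l* level (8.56, against 8.20). The causes were not tested.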

How the results depend on the processing

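*Sqstm1* passed in 15 of 17 alternatives and *Bnip3* in 16, the exceptions being the marker covariates named in the report, and both kept their direction in all 17. The number of autophagy genes past the threshold was 3 in DESeq2 and 2 in voom. Without the replicate block, 742 of all genes passed (647 of them among the 806), and 2 autophagy genes, and the block changed no call among the 41. In all genes, DESeq2 called 1478, voom 1426, the rod and cone covariate 45 and the macrophage covariate 36. Leaving out 1 mouse gave 540 to 1046. With the rod and cone covariate, 1 autophagy gene (1 receptor) was higher, the median of the 41 genes was -0.23, *Nfe2l2* had a log2 fold change of 1.92 (adjusted p = 0.0782), and 0 further pathway genes passed. With the macrophage covariate, 0 autophagy genes (0 receptors) and 0 further pathway genes passed. DESeq2 called 1 core gene and 5 further pathway genes, and voom 7 of the latter. Leaving out 1 mouse gave 2 to 5, with 5 without mouse 6. The correlation of *Sqstm1* and *Nfe2l2* changes was 0.48 to 0.90 when a mouse was left out, and passed only without mouse 8 (exact permutation p = 0.00236). The causes were not tested.

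Signs of most estimates that missed the threshold changed in at least 1 alternative. Of the 41 genes, 12 kept their direction in all alternatives. With the rod and cone covariate, the log2 fold change turned to -0.12 for *Calcoco1*, 0.81 for *Tax1bp1*, 0.33 for *Bnip3l*, -0.71 for *Ulk2*, -0.58 for *Atg13*, 0.31 for *Atg101*, -0.21 for *Becn1*, -0.65 for *Atg14*, -0.72 for *Rubcn*, -0.36 for *Ambra1*, -0.96 for *Wipi2*, -1.34 for *Atg2a*, -0.017 for *Atg2b*, 0.32 for *Atg3*, 0.12 for *Atg4a*, -0.68 for *Atg4c*, -0.83 for *Atg4d* and -0.82 for *Tfe3*. With the macrophage covariate, it turned to -0.42 for *Calcoco1*, -0.076 for *Map1lc3a*, -0.080 for *Map1lc3b*, -0.046 for *Atg13*, -0.091 for *Becn1*, -0.24 for *Pik3c3*, -0.24 for *Atg14*, -0.74 for *Ambra1*, -0.16 for *Wipi2*, -0.19 for *Atg2a*, -0.17 for *Atg2b*, 0.0024 for *Atg4a*, -0.18 for *Atg4c*, -0.22 for *Atg4d*, -0.047 for *Atg5*, -0.12 for *Atg10*, 0.16 for *Atg16l1* and 0.35 for *Atg16l2*. It also turned to 0.17 for *Ulk1*, 0.022 for *Uvrag* and 0.022 for *Atg4a* in voom, to 0.0081 for *Atg4a* and 0.0053 for *Atg16l2* with no count filter, to -0.00098 for *Atg2a* under the filter of 10 counts per library, and to 0.050 for *Ulk1* without the block. Leaving out 1 mouse gave a range across 0 for *Bnip3l* (-0.13 to 0.033), *Ulk1* (-0.30 to 0.13), *Atg4a* (-0.083 to 0.087), *Atg16l2* (-0.099 to 0.073), *Atg13* (-0.095 to 0.19), *Atg101* (-0.16 to 0.022), *Atg14* (-0.048 to 0.22), *Ambra1* (-0.13 to 0.16), *Atg2a* (-0.17 to 0.16), *Atg4c* (-0.13 to 0.20), *Atg4d* (-0.070 to 0.20), *Uvrag* (-0.21 to 0.039), *Atg4b* (-0.21 to 0.0012), *Tfeb* (-0.23 to 0.067) and *Calcoco1* (-0.0048 to 0.21), and for *Map1lc3a* minus *Map1lc3b* (-0.025 to 0.11).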
